A study of Mus musculus with 2 samples.

Results

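The 500 most accessible promoter regions of mouse calf muscle are described here, chosen from 19466 open promoter regions. DNase I digestion followed by sequencing (DNase-seq) had been applied to gastrocnemius from male B6CASTF1/J mice, F1 hybrids of the laboratory strain C57BL/6 and the wild-derived CAST strain, at 14 days of age. There was 1 group with 2 libraries, labelled biological replicates 1 and 2, and no genotype, treatment or time was contrasted. The labels name the same donor entry for both libraries and carry the words 3x Males without saying how many animals were pooled. The spread between libraries may therefore be technical. Whole tissue was used, so muscle fibres, satellite cells, vessels, nerve and connective tissue all contributed.

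The regions were selected on their signal. Overlapping peaks of the 2 libraries were joined into 103684 regions, of which 63851 held a peak of each library and 19466 also lay within 1 kb of a start of a protein-coding gene. These 19466 are called candidates below. Within each library the highest peak signal of a candidate was turned into a percentile among the candidates, the 2 percentiles were averaged, and the highest 500 were kept. Signal values below are therefore a description of what was chosen and carry no test. Where a comparison is made, the values for all candidates and for the next 500 in rank (501 to 1000) stand beside those of the 500 regions.

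DNase I cuts DNA that is not held tightly in nucleosomes, and promoters in use keep such a nucleosome-poor gap just upstream of the start of transcription. Inside such a gap a footprint is a short run of bases cut less than its surroundings, read as cover by a protein, although the enzyme also has sequence preferences, which were not examined. Promoters of broadly used genes usually lie in CpG islands and bind general activators such as SP and KLF factors, NF-Y and NRF1, whereas many tissue-specific genes also depend on distal enhancers.

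The regions of Hjurp, Bahcc1, Mplkip and Nup107 are printed first, because they are among the 5 most open promoters of the tissue by this measure, with Dynlt1b. Each sequence is the GRCm38 reference (mm10), read 5′ to 3′ along the strand of the nearest gene start, and capitals mark bases that lay in a footprint in both libraries. The animals are hybrids, so their own alleles may differ from this reference. Hjurp was read at chr1:88277521-88277760 on the minus strand and Bahcc1 at chr11:120232681-120232880 on the plus strand. Mplkip was read at chr13:17694881-17695100 on the plus strand and Nup107 at chr10:117792721-117792940 on the minus strand.
Hjurp: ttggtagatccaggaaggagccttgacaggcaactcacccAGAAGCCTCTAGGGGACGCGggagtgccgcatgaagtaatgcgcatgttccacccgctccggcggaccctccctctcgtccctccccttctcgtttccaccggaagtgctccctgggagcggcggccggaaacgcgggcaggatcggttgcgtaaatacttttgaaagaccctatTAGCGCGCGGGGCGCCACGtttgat
Bahcc1: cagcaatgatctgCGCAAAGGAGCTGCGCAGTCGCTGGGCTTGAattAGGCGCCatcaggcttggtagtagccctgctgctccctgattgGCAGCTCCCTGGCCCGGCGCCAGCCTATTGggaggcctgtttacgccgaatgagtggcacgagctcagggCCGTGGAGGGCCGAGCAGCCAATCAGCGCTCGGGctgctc
Mplkip: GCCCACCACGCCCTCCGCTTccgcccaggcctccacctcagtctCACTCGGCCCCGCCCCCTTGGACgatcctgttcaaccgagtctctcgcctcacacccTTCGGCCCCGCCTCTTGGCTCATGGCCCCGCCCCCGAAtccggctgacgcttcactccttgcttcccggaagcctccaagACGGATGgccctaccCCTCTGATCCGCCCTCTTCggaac
Nup107: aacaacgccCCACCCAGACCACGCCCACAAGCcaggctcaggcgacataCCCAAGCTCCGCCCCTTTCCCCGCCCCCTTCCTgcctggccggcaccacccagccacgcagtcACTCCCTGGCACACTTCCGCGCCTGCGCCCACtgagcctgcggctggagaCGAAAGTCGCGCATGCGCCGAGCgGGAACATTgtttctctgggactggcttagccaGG

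Hjurp encodes the chaperone that loads the centromeric histone. Its region had a signal of 47.4 in replicate 1 and 23.7 in replicate 2, the highest of any candidate in both, yet only 39 of its 240 bases lay in footprints of both libraries. Its ETS letters (CCGGAAG) were outside those footprints. Dynlt1b, a light chain of the dynein motor, ranked second with signals of 45.2 and 22.2. Of the 32-base words of the Dynlt1b region, 51.9% occur more than once in the reference, so part of its signal may come from near-identical copies of this gene, and its value is uncertain.

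Bahcc1, a bromo-adjacent homology protein, had signals of 36.3 and 16.9. Its region carried 3 copies of the NF-Y letters CCAATNNG, of which 1 was wholly and 1 almost wholly in capitals (8 and 7 of 8 letters). Mplkip, a gene whose human counterpart is mutated in a form of brittle-hair disease, had signals of 37.9 and 13.9, and its start region is shared with Sugct on the other strand. Nup107, a scaffold protein of the nuclear pore, had signals of 27.4 and 16.5, and both of its NRF1 sites (GCGCNTGCGC) lay fully in capitals. The offset of the region's centre from the nearest start, negative upstream, was −7.5 bases for Hjurp, −11.5 for Dynlt1b, −166.5 for Bahcc1, −201.5 for Mplkip and −125.5 for Nup107.

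A further 4 regions are printed because they belong to muscle metabolism (Gys1, Esrra) or show clear examples of 2 less common elements (Lrrc8a, Lamp1). Gys1 (chr7:45434641-45434860, plus strand) encodes the muscle form of glycogen synthase. Esrra (chr19:6921801-6922060, minus strand) encodes an orphan nuclear receptor that drives mitochondrial genes. Lrrc8a (chr2:30237561-30237760, plus strand) encodes the essential subunit of the volume-regulated anion channel and holds a cyclic-AMP response element (TGACGTCA). Lamp1 (chr8:13159061-13159260, plus strand) encodes a major lysosomal membrane glycoprotein and holds a run of CACGTG boxes.
Gys1: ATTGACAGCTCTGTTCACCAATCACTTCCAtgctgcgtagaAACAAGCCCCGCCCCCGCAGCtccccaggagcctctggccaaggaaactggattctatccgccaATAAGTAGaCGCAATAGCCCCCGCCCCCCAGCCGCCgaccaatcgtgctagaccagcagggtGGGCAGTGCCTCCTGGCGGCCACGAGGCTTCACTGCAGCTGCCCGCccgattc
Esrra: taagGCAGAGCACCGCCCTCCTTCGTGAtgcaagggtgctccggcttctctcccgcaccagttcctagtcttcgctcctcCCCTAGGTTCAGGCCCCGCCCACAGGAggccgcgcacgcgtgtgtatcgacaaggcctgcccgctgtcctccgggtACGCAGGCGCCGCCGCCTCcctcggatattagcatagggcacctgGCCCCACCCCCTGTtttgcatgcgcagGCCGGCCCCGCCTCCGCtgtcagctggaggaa
Lrrc8a: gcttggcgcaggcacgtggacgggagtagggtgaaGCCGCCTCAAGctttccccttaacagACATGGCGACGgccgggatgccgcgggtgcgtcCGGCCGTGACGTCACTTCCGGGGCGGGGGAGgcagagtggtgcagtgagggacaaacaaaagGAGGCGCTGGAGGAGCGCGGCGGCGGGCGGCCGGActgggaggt
Lamp1: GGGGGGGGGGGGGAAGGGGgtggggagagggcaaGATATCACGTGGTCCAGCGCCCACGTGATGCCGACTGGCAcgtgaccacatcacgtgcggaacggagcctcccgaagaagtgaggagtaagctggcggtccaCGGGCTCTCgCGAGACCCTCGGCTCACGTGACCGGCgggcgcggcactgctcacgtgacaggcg

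Gys1 ranked 32 with signals of 22.8 and 11.4, and its 2 SP/KLF sites (GGGCGGGG) were both fully in capitals at −152.5 and −76.5 bases from the start. Esrra ranked 48 with signals of 26.7 and 10.1, and 101 of its 260 bases were in footprints of both libraries. In Lrrc8a the cyclic-AMP response element, an ETS site and an SP/KLF site stood side by side at −50.5, −43 and −36.5 bases, and all of their letters were in capitals. Lamp1 had 6 CACGTG boxes, more than any other of the 500 regions, and 3 of them lay fully in footprints of both libraries. Of the 500 regions, 12 held 2 or more boxes, against 9 of the next 500 and 166 of all 19466 candidates.

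**Figure D1:**
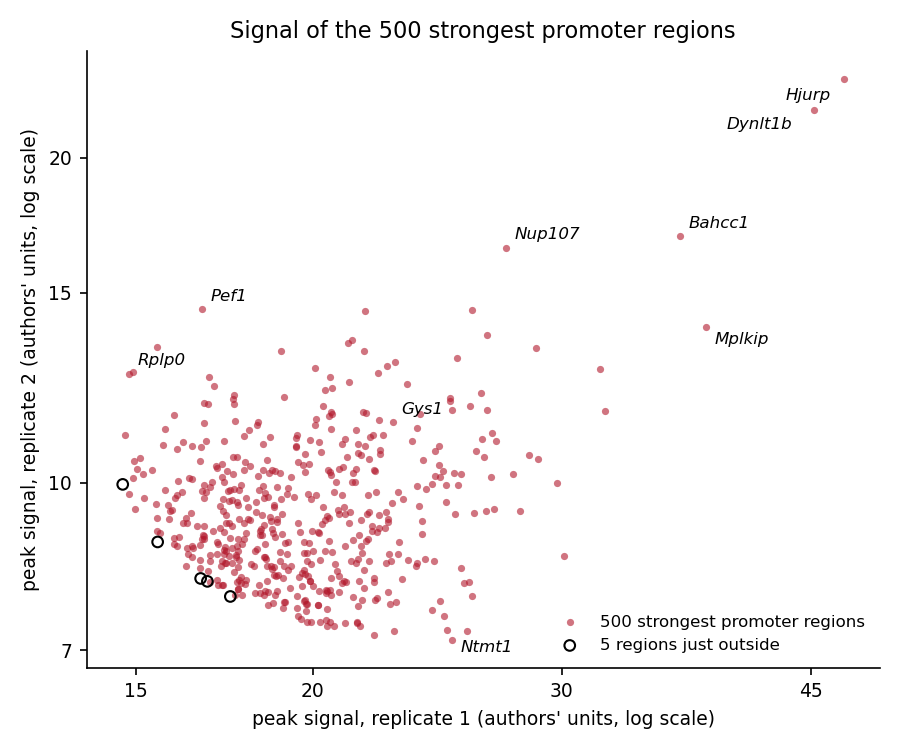
Peak signal of each of the 500 regions (red points) in replicate 1 (x axis) and replicate 2 (y axis), both in the authors' units on log scales. Open circles are the 5 candidates just outside the limit. Hjurp and Dynlt1b stand apart from the other regions in both libraries, at 47.4 and 45.2 in replicate 1.

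Signals of the 500 regions ran between 14.7 and 47.4 in replicate 1 (median 19.5) and between 7.16 and 23.7 in replicate 2 (median 9.26). The medians of all candidates were 3.63 and 2.11. The scale of the signal is not stated and differs between the libraries, so it is read within a library only. The plot of signal by library shows a dense body of regions with little to separate neighbours in rank, and a handful that stand clear of it. Below the first 5, Fzr1, an activator of the anaphase-promoting complex, had signals of 28.7 and 13.3. Ctdsp2, a phosphatase of the RNA polymerase II tail, had 31.9 and 12.8. Snrnp70, the U1 splicing particle's 70K protein, had 26.6 and 13.7. These 3 were close to each other in both libraries, so their order in the ranking is not firm.

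Rragc, a GTPase that signals amino acid supply to mTORC1, had signals of 25.9 and 14.5. Dnpep, an aspartyl aminopeptidase, had 32.2 and 11.7. Fbh1, a DNA helicase with an F-box, shared its region with Ankrd16 and had 25.3 and 13.0. The rest of the first 25 were Ing2, Glo1, Amd1, Peak1, Tle4, Tef, Sde2, Ankhd1, Eloa, Papss1, Parp6, Rab40c, Arhgap12 and Crebl2, with signals of 22.3 to 26.9 in replicate 1 and 10.9 to 12.9 in replicate 2. Among them, Glo1, which clears methylglyoxal, had 13.0% of its 32-base words in more than 1 copy. Tle4 is a co-repressor, Eloa an elongation factor subunit and Amd1 an enzyme of polyamine synthesis.

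The limit of 500 cut through a continuous range. The lowest regions kept were at Pmm1, Zc3h6, Get4, Dcakd and Sh3bp4, and Sh3bp4 had signals of 16.9 and 8.09 (mean percentile 96.4605). The first regions left out were at Atf2, Ubac2, Tvp23b, Hyou1 and Amz2, and Atf2 had 16.9 and 8.11 (mean percentile 96.4566). No region kept was below percentile 93.97 in replicate 1 or 93.31 in replicate 2.

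The libraries agreed in part on which regions were strongest. Of the 500 regions, 236 were among the first 500 of both libraries taken alone, 373 among those of replicate 1, 338 among those of replicate 2 and 25 among neither. The first 500 of replicate 1 had a median percentile of 97.2 in replicate 2, a 5th percentile of 88.0 and a lowest value of 61.5. The first 500 of replicate 2 had 97.2, 83.2 and 65.2 in replicate 1. The median absolute difference of percentile between libraries was 1.25 points in the 500 regions, against 3.13 in the next 500 and 5.71 in all candidates, a measure that the limit itself narrows. Ntmt1, an N-terminal methyltransferase, differed most, with a signal of 25.1 in replicate 1 (percentile 99.8) and 7.16 in replicate 2 (percentile 93.3). Rplp0, a protein of the ribosomal stalk, differed most in the other direction, with 14.8 (percentile 94.2) and 12.6 (percentile 99.9). The ratio of replicate 1 to replicate 2 had a median of 2.09 in the 500 regions, 2.04 in the next 500 and 1.77 in all candidates.

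The 500 regions lay near the starts of 574 genes, which is 4.26% of the 13478 genes with a candidate. Of the regions, 421 served 1 gene, 78 served 2 and 1 served 3. Starts on both strands within 1 kb were present at 73 regions (14.6%), against 15% of the next 500 and 8.55% of all candidates. Bidirectional arrangement was therefore as frequent in the next 500 as in the 500 themselves. Mplkip with Sugct and Fbh1 with Ankrd16 were such pairs among the first 25. The genes Dcaf6, Ell, Fkbp2, Mpc2, Ppp2r5a and Samd4b each had 2 of the regions. At Mpc2, a subunit of the mitochondrial pyruvate carrier that shares its promoter with Dcaf6, the regions had 18.9 and 9.26 (chr1:165460441-165460680) and 19.8 and 7.73 (chr1:165460921-165461300).

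The genes were then read by function, first by families of housekeeping genes and then by muscle and cell-type lists. Beside every count stands the background of 4.26% of genes with a candidate that have one of the 500 regions. Members of a family differ in their number of annotated starts and in sequence copies, so the counts are descriptions. Chromatin regulators had 12 of 103 genes (11.7%) with one of the 500 regions. Ing2, a reader of methylated histone H3 in the Sin3 complex, was highest, with signals of 26.3 and 12.1. Hdac4, a class IIa deacetylase that represses MEF2 factors, had 23.7 and 9.93, Kat6b, an acetyltransferase, had 21.3 and 10.03, and Smarcc1, a core subunit of the SWI/SNF remodeller, had 19.8 and 10.6. The remodelling ATPase Smarca4 was also in the set (16.8 and 9.68), as was the methyltransferase Kmt2a (15.1 and 10.6).

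Translation factors had 7 of 67 genes (10.4%). Eif5a, the hypusine-bearing elongation factor, had 28.5 and 10.6, Eif1, which guards start codon choice, had 24.6 and 10.4, and Eef2, the translocase, had 16.9 and 12.5. The nuclear pore and transport family had 4 of 37 genes (10.8%), with Nup107, Nup50 (21.8 and 14.4), the exportin Xpo1 (20.8 and 10.01) and Nup214 (16.0 and 8.74). Vesicle traffic had 16 of 206 genes (7.77%), led by Rab40c (22.6 and 12.8) and Rab1a (27.7 and 10.2), small GTPases, and by Sec16a (24.6 and 10.1), an organiser of endoplasmic reticulum exit sites. Chaperones had 6 of 81 (7.41%), with the DnaJ protein Dnajc3 (24.4 and 10.7) and the constitutive heat-shock protein Hspa8 (23.2 and 9.66) first. Cell cycle and replication genes had 8 of 116 (6.90%), among them Cenpu, Anapc4 and Ccne1. Ubiquitin enzymes had 13 of 233 (5.58%), DNA repair 4 of 67 (5.97%) and splicing factors 4 of 79 (5.06%), shares near the background. A count of 4 genes, as in the nuclear pore family, is small, and no excess over the background was tested.

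Several other families of ubiquitous genes were also near the background, or below it. Cytosolic ribosomal proteins had 3 of 83 genes (3.61%), namely Rpl7a (21.3 and 13.6), Rpl23 (17.1 and 8.81) and Rplp0. Mitochondrial ribosomal proteins had 1 of 78, Mrpl17, and respiratory chain and ATP synthase genes 1 of 90, Ndufv3 (18.2 and 9.40). Proteasome subunits had 0 of 46, mitochondrial import 0 of 24 and tRNA synthetases 0 of 20. Most of these promoters were nonetheless well open: the median mean percentile was 81.4 for the respiratory genes, 81.3 for cytosolic ribosomal proteins and 76.6 for the proteasome, against 77.6 for chromatin regulators. Counts in the 500 did not follow these medians closely, and splicing factors, with a median of 86.6, had 5.06% of genes in the set. At the background of 4.26%, families of this size would hold only a few such genes. Counts of 0 or 1 in this paragraph cannot be set apart from it, so no deficit is read from them. Zinc finger proteins had 8 of 396 (2.02%), with Zfp143 (20.4 and 12.2) highest, and solute carriers had 7 of 231 (3.03%). Histone genes had 1 of 63, the variant gene H2afv. RNA polymerase and general transcription factor genes had 4 of 104 (3.85%), RNA helicases 2 of 51, cilium and centrosome genes 3 of 65, and dynein and kinesin genes 1 of 55, Dynlt1b. Olfactory and vomeronasal receptors had candidates at 8 genes and keratins at 6, with none of the 500 regions.

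**Figure D2:**
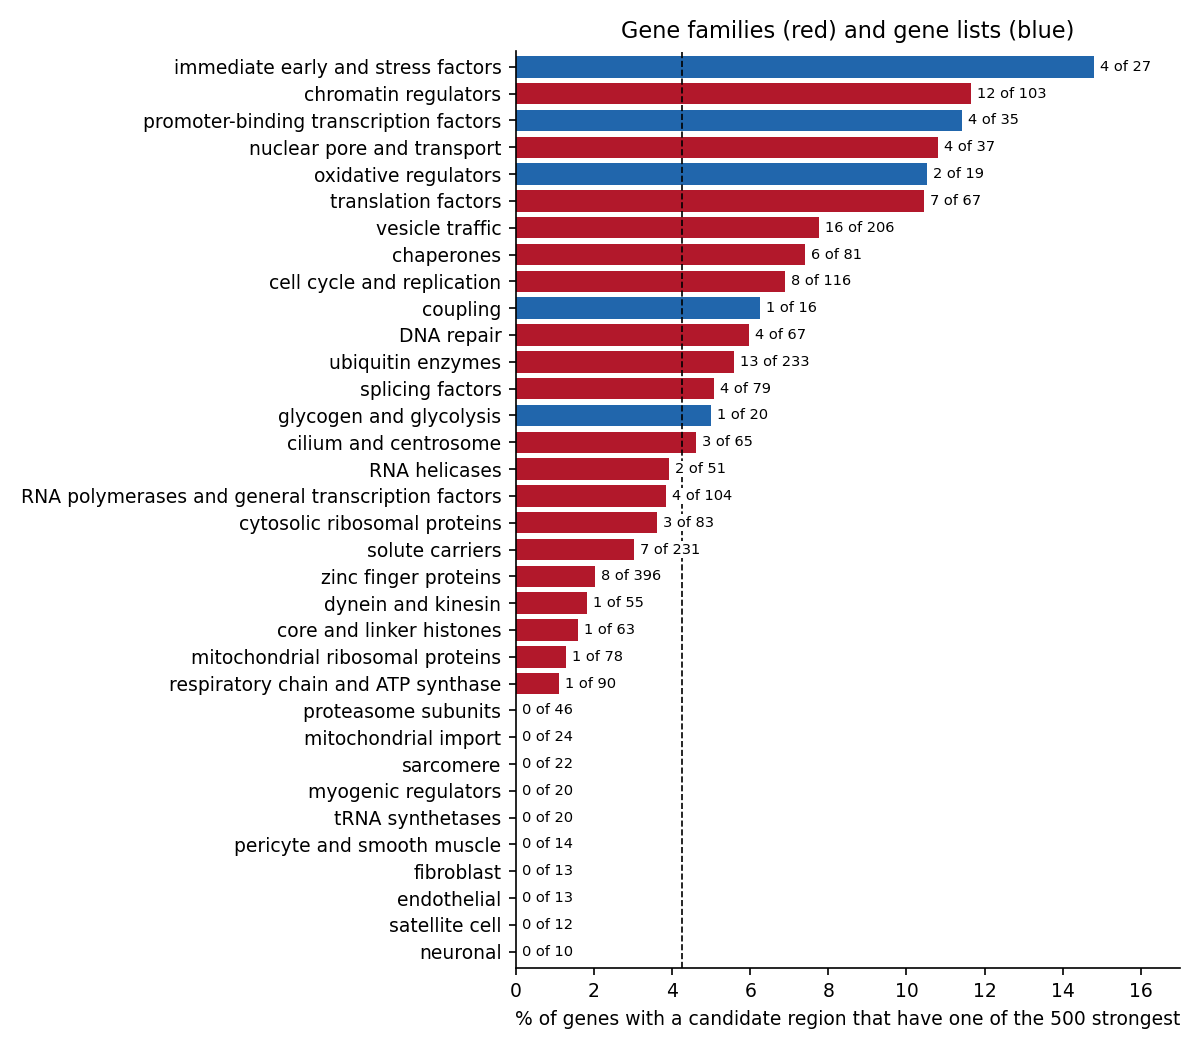
Share of the genes with a candidate region that had one of the 500 regions, for housekeeping and other families (red) and for transcription factor, muscle and cell-type lists (blue) with at least 10 such genes. Labels give the counts and the dashed line is the value over all genes, 4.26%. Chromatin regulators stood at 12 of 103 genes and sarcomere genes at 0 of 22.

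Of 28 sarcomere genes, 22 had a candidate and 0 had one of the 500 regions. At the background of 4.26% a list of this size would hold about 1 gene, so the 0 cannot be set apart from it, and the same holds for the myogenic regulators below. Tpm1, which encodes an alpha-tropomyosin used in many tissues, came nearest at rank 592 (14.9 and 8.74), and Mybpc2, the fast myosin-binding protein C, followed at rank 3402 (9.98 and 5.05). Myh2, Myh4, Myh7, Myoz2, Tcap and Csrp3 had no candidate. The median mean percentile of the sarcomere genes with a candidate was 46.0, against 77.6 for the chromatin regulators. Myogenic regulators had 0 of 20, and Mef2a was highest at rank 2102 (11.3 and 6.50). In bulk tissue, fewer cells of a type and a lower accessibility in each cannot be told apart.

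Other muscle lists cover metabolism and excitation coupling. Gys1 was the single one of 20 glycogen and glycolysis genes in the set. Oxidative regulators had 2 of 19, Esrra and Cycs, the gene of cytochrome c (17.1 and 10.3). The excitation coupling list had 1 of 16, Mtmr4, a lipid phosphatase (20.5 and 7.90). Its place in that list is not evidence of a role in coupling. Each of these counts is 1 or 2 genes and cannot be set apart from the background of 4.26%.

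Other genes with known roles in muscle were noticed after their values were seen. Dag1, which encodes dystroglycan and ties the fibre to its matrix, ranked 125 with 22.3 and 9.33 (chr9:108263841-108264080). Vcl, vinculin of the costameres, ranked 208 with 22.7 and 8.46. Ppp3ca, the catalytic subunit of calcineurin, ranked 77 with 22.1 and 10.3, and Mapk14, the p38 alpha kinase, ranked 142 with 21.1 and 9.35. The regulatory light chain genes Myl12a and Myl12b shared 1 region (21.9 and 8.47), and Myh9 (17.4 and 8.72) and Actn4 (17.2 and 8.37) were present, all of them encoding the non-sarcomeric forms. Tef, a clock-controlled PAR bZIP factor, ranked 17 (25.1 and 11.7), and Nr1d2, the REV-ERB beta repressor of the clock, ranked 424 (18.6 and 7.92).

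Immediate early and stress factors had 4 of 27 genes in the set (14.8%), beside the 4.26% over all genes. Ddit3, the CHOP factor of the stress response, had 25.2 and 10.2, Jun had 18.7 and 11.03, Jund had 19.0 and 9.36 and Klf2 had 18.3 and 8.04. Factors that bind promoters widely had 4 of 35, Zfp143, Nfya (17.7 and 10.6), Sp4 (24.6 and 7.77) and Etv5 (18.7 and 8.32). Counts of 4 genes are small, and no excess over the background was tested.

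Marker lists of other cell types had 0 regions in the set. Satellite cell genes had 12 candidates of 18 genes, endothelial genes 13 of 18, fibroblast genes 13 of 18, pericyte and smooth muscle genes 14 of 14 and tendon genes 8 of 12. Egr1, which stands in the tendon list and is itself an immediate early gene, came nearest at rank 800 (14.0 and 8.44), followed by the lipase gene Lipe of the adipocyte list at rank 1416 (12.3 and 7.48). Macrophage and leukocyte genes had a candidate at 1 of 18 and hepatocyte genes at 1 of 18, with Cd68 at rank 17186 (0.764 and 0.762) and Apob at rank 15360 (0.936 and 1.15). Schwann, erythroid, neuronal and keratinocyte genes also had none, with best ranks of 3054 (Prx), 12697 (Epor), 9052 (Dlg4) and 5464 (Krt10). With 1 to 14 genes with a candidate in each list, the background of 4.26% is less than 1 gene per list, so these zeros cannot be set apart from it.

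By RefSeq description, a looser grouping made with the data in view, 559 of the genes had one. Kinases were the largest class with 35 genes, or 6.26% of the described genes in the set against 4.50% of those with a candidate. The signalling kinases Mapk14, Stk11 (19.5 and 10.8), Ulk1 (19.9 and 8.40) and Map2k1 (23.8 and 9.52) were among them. Genes with a muscle or muscle-protein word in their description numbered 9 of 91 with a candidate, or 9.89% of the class, the highest share of the 17 classes, beside 4.26% over all genes. They were Gys1, Myo10, Myl12a, Myl12b, Myo9a, Adss, Myh9, Actn4 and Mylip, of which Myl12a and Myl12b share 1 region. Most of these encode non-sarcomeric motor and cytoskeletal proteins. Receptors made up 2.68% against 4.85%, and genes described as mitochondrial 1.97% against 3.04%. Word matches are crude, since a gene such as Nucks1 is counted with the kinases for being a kinase substrate.

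The position of the regions was not used to rank them, beyond the limit of 1 kb. The centres of the 500 regions lay at a median of −83 bases from the nearest start (interquartile range −138.5 to −37.25, negative values upstream). In the next 500 the median was −60.5, and over all candidates it was −16.5 (interquartile range −81.4 to 178.4). The median was −83.5 when taken from the strongest peak of replicate 1 and −82 from that of replicate 2. Both peaks lie in the same joined regions, so this closeness follows largely from how the regions were made. When 1 library alone defined and ranked the candidates, the median of its first 500 was −85.5 for replicate 1 and −67 for replicate 2, so the distance to the next 500 depended on the library used. Centres upstream of the start made up 439 of 500 (87.8%), against 80.4% in the next 500 and 57.5% of all candidates. Those up to 200 bases upstream made up 76.8%, against 72.2% and 45.1%. Only 12 (2.4%) were more than 500 bases away, against 2.6% and 19.1%.

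**Figure D3:**
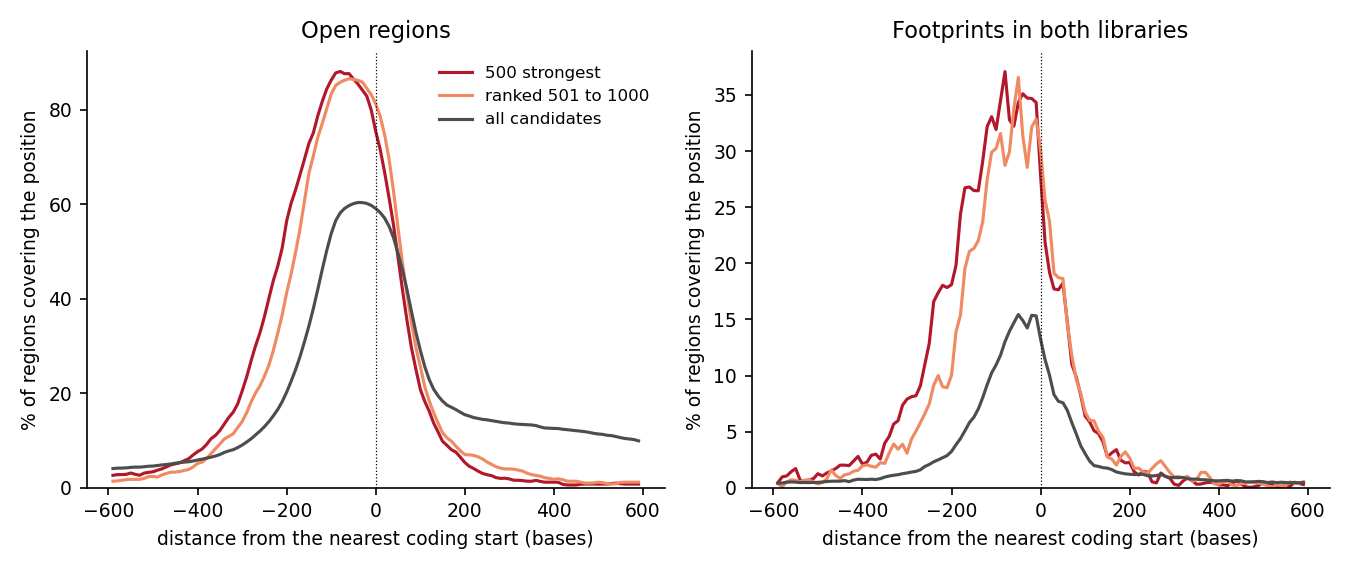
Share of regions that cover each position around the nearest coding start (left) and share with a footprint of both libraries there (right), in means over 10 bases, for the 500 regions (red), the next 500 (orange) and all candidates (grey). The x axis gives bases from the start, negative upstream. The 500 regions peak farther upstream than the other sets.

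The position covered by most of the 500 regions was −83 bases, where 88.4% of them were open. It was −57 bases in the next 500 (86.8%) and −40 bases over all candidates (60.4%). The start itself was open in 374 of the 500 regions (74.8%), which is fewer than in the next 500 (81.0%) and more than in all candidates (59.1%). The profile of footprints shows the displacement on the upstream side, while downstream of the start the lines of the 500 regions and the next 500 lie close together.

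Among the exceptions, the regions of Ell (16.6 and 9.12), Med13 (20.5 and 7.64), Fbxw7 (21.7 and 7.79), Sp4 and Ski (17.3 and 10.9) had their centres at −817.5, −808.5, −787.5, −780.5 and −718.5 bases. Fbxw7 is a substrate receptor of a ubiquitin ligase, Med13 a Mediator subunit and Ski a co-repressor of TGF-beta signalling. Farthest downstream lay Foxn3 (921.5 bases, 15.9 and 9.44), Pnrc1 (689.5 bases, 18.1 and 10.4) and Cic (576.5 bases, 18.4 and 9.06). Such distances depend on which starts the annotation lists. The region of Tef, 199.5 bases downstream of its nearest start, also had a CpG ratio of 0.297, and only Zfp687 (0.308) was likewise under 0.4.

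Regions of the set were 260 bases wide at the median, as were the next 500, against 240 bases over all candidates. Wipi1, an autophagy protein, had the widest region, 680 bases, followed by Abtb1 and Csnk1g2 at 660 bases each. Around the nearest start, the bases within 1 kb listed in the FDR track (FDR under 0.05) numbered 1289 in replicate 1 and 1453 in replicate 2 at the median. They numbered 1200.5 and 1411 in the next 500, and 1034 and 1189 over all candidates.

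Every one of the 500 regions had a footprint in both libraries, against 88.2% of all candidates, and so did every one of the next 500. Footprints numbered 5.92 per region in replicate 1 and 6.51 in replicate 2 (mean 6.21 ± 0.421, SD, n = 2 libraries). The next 500 had 5.77 and 6.34, and all candidates had 3.96 and 4.43. The range in the set was 2 to 17 in replicate 1 and 3 to 18 in replicate 2. Footprints per 100 bases had a median of 2.13 in the set, 2.22 in the next 500 and 1.68 in all candidates. Counts per length were therefore no higher in the 500 regions than in the next 500.

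The extent of the footprints followed the same order. Bases inside footprints of both libraries made up 36.5% of the 500 regions, 33.1% of the next 500 and 13.9% of all candidates. The median footprint length was 21 bases in each library in the set, 19 in the next 500, and 13 and 12 over all candidates. Of replicate 1's footprints in the set, 91.2% overlapped one of replicate 2, against 89.5% in the next 500 and 73.0% over all candidates. Of replicate 2's, 83.6% overlapped one of replicate 1, against 83.0% and 65.7%. Footprints are called from the same cuts as the signal, so their number and length move with it, and how far depth alone sets them was not tested.

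Footprints also lay upstream. The position most often inside a footprint of both libraries was −81 bases from the start in the 500 regions (39.6% of them). It was −54 bases in the next 500 (38.2%) and −17 bases over all candidates (15.8%). These are maxima at single bases. In averages over neighbouring bases, as drawn in the profile, all candidates were highest at −50 bases (15.44%), barely above −20 bases (15.37%). The next 500 were also highest at −50 bases (36.56%), and the 500 regions at −80 bases (37.08%). The order of the next 500 and all candidates is therefore not firm. Wipi1 had the most footprints, 17 in replicate 1 and 18 in replicate 2, in keeping with its width. Abtb1 and Csnk1g2 had 15 and 16 each. At the other end, Pef1, a penta-EF-hand calcium-binding protein, had 3 in each library although its signal was 14.5 in replicate 2 (percentile 99.98) and 16.7 in replicate 1 (percentile 96.5). Tef and Hjurp were also sparsely footprinted, with 3 and 3, and 2 and 5.

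The sequence of the regions was examined in the 200 bases around each centre. The CpG ratio (observed over that from base composition) had a median of 0.883 in the set, 0.903 in the next 500 and 0.794 over all candidates. It was under 0.4 in 2 of the 500 regions (0.4%), against 1.0% of the next 500 and 11.9% of all candidates. The G+C content was 67.5%, 67% and 65.5% at the median. Repeat bases took more than 10% of the region in 13.2% of the set, 12% of the next 500 and 22.3% of all candidates. Over 10% of 32-base words were in more than 1 copy at 7 regions, 1.4% of the set, against 2.65% of all candidates. Besides Dynlt1b and Glo1 these were Prmt5, Dpf2, Kifc1, Kifc5b and Ube2h, whose values are uncertain for the same reason.

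Motifs were searched on both strands as exact letters, N standing for any base. A match describes letters, not binding. The SP/KLF letters GGGCGGGG were in 256 of the 500 regions (51.2%), against 47.4% of the next 500 and 26.2% of all candidates. The NF-Y letters CCAATNNG were in 30.6%, against 33.4% and 12.7%. The NRF1 palindrome GCGCNTGCGC was in 21.4%, against 20.8% and 7.38%. At least 1 of these 3 elements was present in all but 119 regions of the set (23.8% without), whereas 24.2% of the next 500 and 60.2% of all candidates had none. The shares in the 500 regions were thus close to those in the next 500, and both were far from those of the candidates at large.

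The box CACGTG, bound by USF, MYC and related factors, was more unequal. It was in 64 of the 500 regions (12.8%), against 7.6% of the next 500 and 6.98% of all candidates. In successive blocks of 100 regions by rank it was in 14, 11, 14, 9 and 16, with no trend. With all candidates cut into 10 equal groups by rank, it was in 9.45% of the strongest group, which holds the set. It was in 10.5% of the second group, so the difference from the next 500 is not part of a steady rise with rank. The TATA letters TATAAA were in 3.2%, against 1.0% and 2.57%, and those of TEAD factors (GGAATG) in 7.6%, against 4.6% and 7.09%. The cyclic-AMP response element TGACGTCA was in 4.2%, fewer than in the next 500 (6.6%) and more than in all candidates (2.42%). The ZBTB33 palindrome CTCGCGAG was in 4.0%, against 4.0% and 1.27%. These counts are of 64 regions or fewer, and a difference of a few regions between sets has no replicate check.

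**Figure D4:**
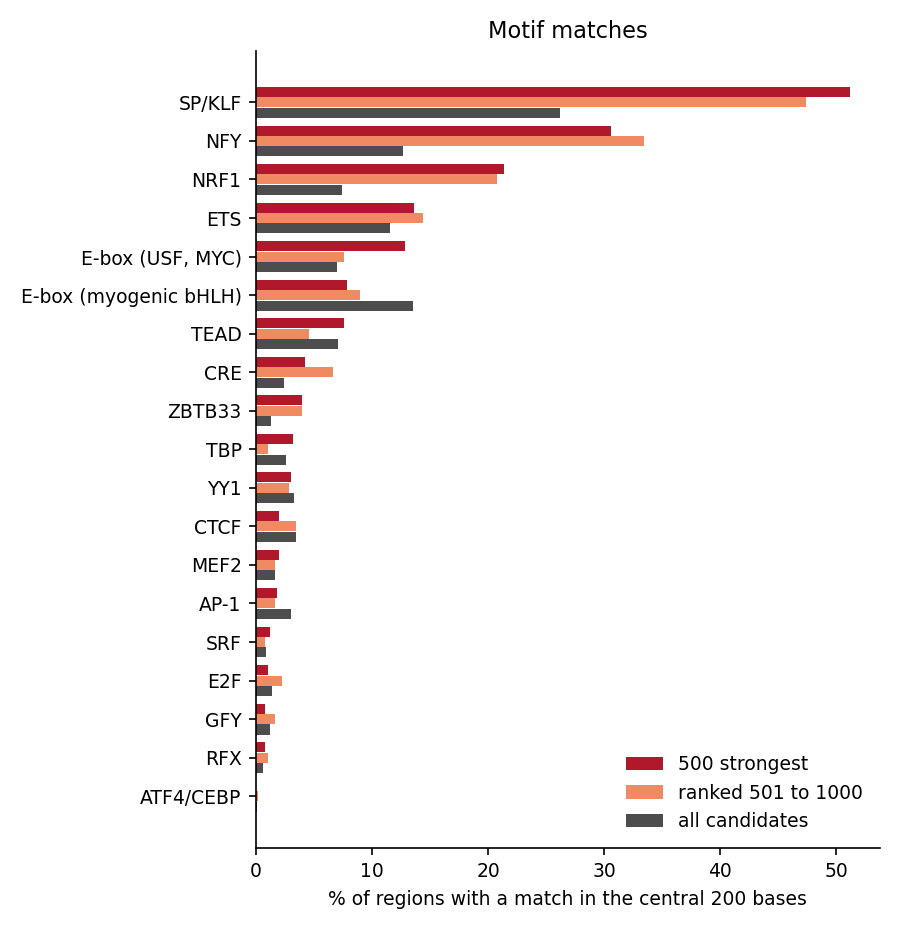
Share of regions with a match to each of 19 motifs in the central 200 bases, for the 500 regions (red), the next 500 (orange) and all candidates (grey). SP/KLF, NF-Y and NRF1 letters lead, at 51.2%, 30.6% and 21.4% of the 500 regions.

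Elements of other kinds differed less, or were less frequent in the set than among all candidates. ETS letters (CCGGAAG) were in 13.6%, against 14.4% of the next 500 and 11.6% of all candidates, and YY1 letters (AANATGGCG) in 3.0%, against 2.8% and 3.3%. The box CAGCTG, preferred by myogenic bHLH factors such as MyoD, was in 7.8%, against 9.0% and 13.5%. The AP-1 letters TGANTCA were in 1.8%, against 1.6% and 3% of all candidates, and the CTCF letters CCANNAGNNGGC in 2.0%, against 3.4% and 3.41%. MEF2 letters (CTANNNNTAG) were in 2.0%, against 1.6% and 1.63%, and serum response factor letters (CCNTATNNGG) in 1.2%, against 0.8% and 0.873%. E2F letters (TTTCCCGC) were in 1.0%, against 2.2% and 1.37%. The element associated with ZNF143 (ACTACANTTCCC) was in 0.8%, against 1.6% and 1.21%, and RFX letters (GTTGCCATG) in 0.8%, against 1.0% and 0.555%. The ATF4 and CEBP letters TGATGCAAT were in 0 of the 500 regions, against 0.2% and 0.0668%.

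Matches differed in how often they lay in footprints. Over whole regions, a match counted as covered if at least 50% of its letters were in footprints of both libraries. NRF1 matches were covered in 162 of 172 cases in the set (94.2%), against 84.7% over all candidates. SP/KLF matches were covered in 448 of 493 (90.9%), against 62.1%, and cyclic-AMP response elements in 25 of 27 (92.6%), against 80.4%. NF-Y matches were covered in 104 of 267 (39.0%), against 25.2%, although 36.5% of all bases of the set lay in footprints of both libraries. Within the set, matches of the NF-Y letters were thus covered about as often as bases at large. Over all candidates they were covered more often than bases, at 25.2% against 13.9%. ETS matches were covered in 43.3% (28.4% over all candidates), CACGTG boxes in 49.5% (24.6%), CAGCTG boxes in 28.1% (10.8%) and AP-1 matches in 1 of 11.

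The positions of the matches were also measured. SP/KLF matches in the set lay at a median of −76.5 bases from the start (−41.5 over all candidates) and NRF1 matches at −79.5 (−26.5). NF-Y matches lay at −90.5 (−60.5) and cyclic-AMP response elements at −54.5 (−29). The regions of the set themselves lay farther upstream than those of all candidates, with centres at medians of −83 and −16.5 bases. Matches were sought only inside the regions, so these positions follow in part from where the regions lie. Whether an element had a preferred place within them was not tested. YY1 matches had a median 20 bases downstream in the set (31 matches, interquartile range −120.5 to 72.5) and 26 bases downstream over all candidates. CAGCTG boxes also had a median downstream over all candidates, at 37.5 bases, though not in the set (−66.5). Within the central 200 bases, 33 regions of the set held 2 NF-Y matches and 6 held 3 or more. Neighbouring NF-Y matches there were 48 bases apart at the median in the set and 44 bases apart over all candidates.

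**Figure D5:**
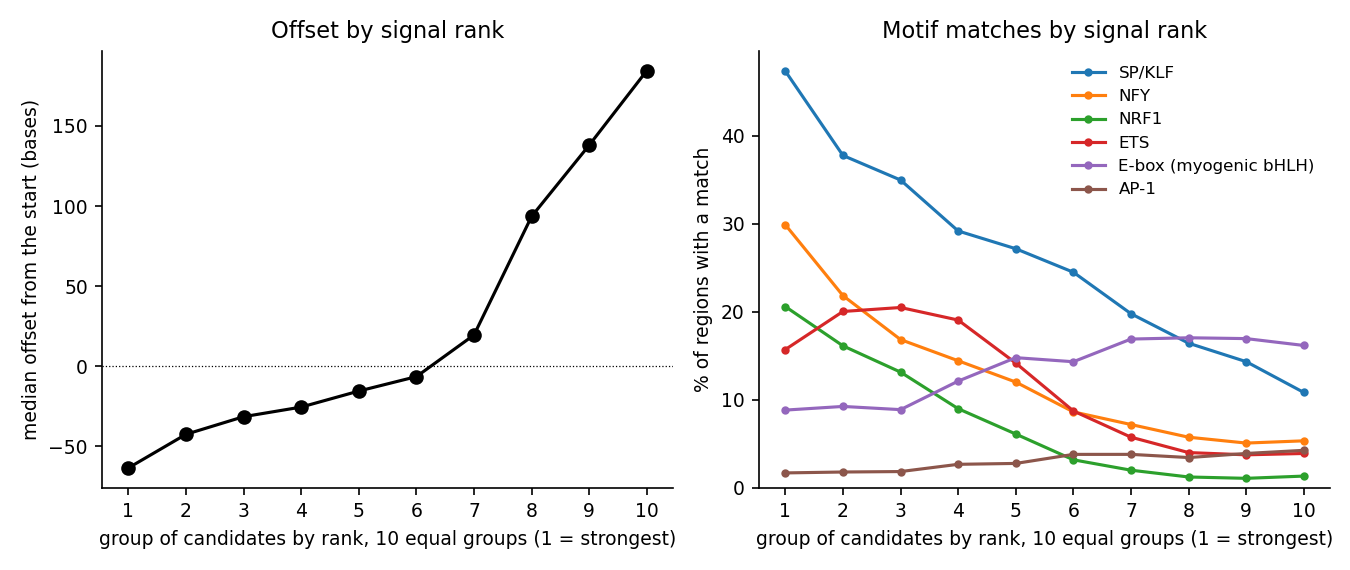
Median offset of the region's centre from the start in bases (left) and share of regions with a motif match (right) for 10 equal groups of candidates by rank, 1 being the strongest. The 500 regions are the upper part of group 1, and the offset passes the start between groups 6 and 7.

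Placed in the whole ranking, the set continues a gradient rather than breaking from it. The candidates were cut into 10 groups of equal size by rank. The median offset was −63.5 bases in the strongest group and 184.5 in the weakest, and the CpG ratio 0.896 and 0.643. SP/KLF letters were in 47.4% of the strongest group and 10.8% of the weakest, and NF-Y letters in 29.9% and 5.34%. CAGCTG boxes went the other way, with 8.83% and 16.2%. ETS letters were most frequent in group 3 (20.5%, against 15.7% in group 1), and so were YY1 letters (7.40%, against 4.16%). Within the set, successive blocks of 100 regions by rank had median offsets of −92, −59.5, −81.5, −93.5 and −85 bases, with no order.

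None of the 500 regions was on chromosome X, which held 629 of the candidates, 3.23% of them. The highest X region was at Gm21887, rank 644 (16.1 and 7.80). The animals were male and carry a single X, and the median signal of X candidates was 1.96 and 1.05, against 3.71 and 2.17 on autosomes. When the signal of every X region was multiplied by 2 before ranking, a setting chosen after seeing the data, 11 X regions entered the first 500, or 1.75% of X candidates, against the 2.57% of all candidates that the 500 make up. The setting treats every X region alike, and Gm21887 stood more than once among the 11. Whether X copy number accounts for the absence was not tested. Among autosomes, the share of candidates in the set ran between 1.40% on chromosome 3 and 3.63% on chromosome 17.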

How the data were processed

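Peaks, footprints and per-base FDR values from 2 DNase-seq libraries (mm10) were used as deposited. Peak signal is the authors' value per peak, called from each library alone, per the file headers. The sources used here state neither its scaling nor the aligner and callers. The FDR (an adjusted p-value per base, listed under 0.05) and the footprint threshold, constant at 0.01, are likewise the authors' deposited values. The files give no read totals, so depth is unknown and no counting interval is given. The libraries held 82498 and 88198 peaks in the shorter of the 2 deposited peak lists, which served here, and 320456 and 384435 footprints.

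Peaks overlapping by at least 1 base were joined, and candidates, percentiles and offsets were computed as described above, with the starts of all transcripts of protein-coding genes in GENCODE M21 (basic set, 21924 symbols). The offset runs from the nearest start to the region's centre. A footprint was counted if it overlapped a region by at least 1 base. Sequence came from the RefSeq copy of GRCm38, whose chromosomes hold every peak. Scripts used Python 3.11.15, numpy 2.4.6 and numba 0.67.0, and were checked on simulated regions with planted answers.

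The members and lists (23 families, 20 gene lists, 19 motifs) were chosen with earlier results of these data known. No test was run, since the regions were ranked on the signal and 2 libraries of 1 group allow no comparison of conditions. Named genes are the first 25, the 5 on either side of the limit, the extremes of footprints, width, offset and library difference, regions with multicopy words, and the members and highest genes of each list. Some genes that this rule selects are not reported here. Others are marked as chosen after their values were seen. Alternatives were start windows of 250 and 2500 bases, the longer peak lists, joined abutting peaks, other ways to combine signal, starts of coding transcripts only, 250 or 1000 regions, footprints wholly inside a region, a sequence window of 300 bases, and each library alone.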

Additional observations from a re-analysis of the deposited data

How the results depend on the processing

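Of 77 values computed under the alternatives, 65 stayed within the spread between the libraries (for counts, within 1.5 times). That limit is wide for counts, since even 337 of the 500 regions kept fell within it. The share of regions with a footprint in both libraries was 100% throughout. The 65 therefore overstates how little the values moved. The median offset stayed upstream in every setting. The candidates numbered 14806 with a start window of 250 bases and 22846 with the longer peak lists. Of the 500 regions, 337 to 373 were kept when a library was left out, and 467 to 500 under the other settings that keep 500. The median offset was −67 to −85.5 bases without a library (−67 when replicate 2 ranked alone) and −70.5 with 1000 regions, against −83. Footprints per region numbered 5.32 to 5.48 with 1 library and 5.60 when wholly inside the region, against 6.21; the regions kept and the library counted both change when a library is left out. The share of regions with any motif was 90.0% with a start window of 250 bases, 89.8% without either library, 89.2% with abutting peaks joined or with summed signal, 91.2% with 250 regions and 94.6% in a window of 300 bases, which is longer by construction, against 89.4%. The cause of the other shifts was not tested. With 2 libraries from 1 donor entry and unknown depth, differences of a few regions between sets cannot be read.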

Other observations

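Of the 18 matches to the CTCF letters within the 500 regions, 15 (83.3%) read on the strand of the nearest gene, against 52.8% of 886 matches over all candidates. The matches lay in 16 regions, the pattern was noticed after the values were seen, and it was not tested. Fxr2, an RNA-binding relative of the fragile X protein, was the strongest region with such a match (rank 33, signals of 21.8 and 13.2).

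No motif of the list was found in the central 200 bases of 53 of the 500 regions (10.6%), against 10.4% of the next 500 and 31.1% of all candidates. Fzr1 (rank 6), the region shared by Med22 and Rpl7a (rank 38) and Hnrnpc (rank 47) were among them. Outside the central 200 bases, the Fzr1 region did hold an NRF1 match and a CAGCTG box, at −256.5 and −249.5 bases from the start.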
